A study of Mus musculus with 10 samples.

Results

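The nuclear genes of the mitochondrial respiratory chain were followed, complex by complex, through 10 RNA-seq libraries of sorted splenic B cells. Members were taken from the count table by name alone: symbols beginning with Nduf and then a, b, c, s or v and a digit (complex I), Sdha to Sdhd (complex II), symbols beginning with Uqcr (complex III), with Cox and a digit between 4 and 8 (complex IV), or with Atp5 (complex V). This gave 90 of 46316 genes, namely 42 in complex I, 4 in complex II, 8 in complex III, 19 in complex IV and 17 in complex V. The 7 pseudogene names ending in -ps, with or without a number, were left out. Of the 90 members, 85 had enough counts to be tested, and the 5 others (Cox4i2, Cox7a1, Cox7b2, Cox8b and Cox8c) were all of complex IV. RefSeq lists 3 of the tested members, Cox6c2, Ndufs6b and Ndufa11b, as pseudogenes. The table uses older symbols for complex V, such as Atp5a1 for Atp5f1a, Atp5g1 for Atp5mc1 and Atp5mpl for Atp5mj, and these are kept here.

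Complexes I, III and IV pass electrons from NADH to oxygen and pump protons across the inner mitochondrial membrane, and complex V uses the returning protons to make ATP. Complex II joins the chain to the tricarboxylic acid (TCA) cycle, and all 4 of its subunits are encoded in the nucleus. The other complexes combine nuclear subunits with a few encoded in mitochondrial DNA, which were not analysed here. Germinal centre B cells and B cell lymphomas both divide fast, and oxidative phosphorylation is one of the programmes by which diffuse large B cell lymphomas have been classed.

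The pBIC10 group (n = 3) held B220+ GFP+ lymphoma cells of mice with the genotype p53F/F, Blimp1F/F, IKK2castopF/stopF, Cg1Cre/+ and IL-10F/F. The pBIC group (n = 3) held the same kind of cells from mice with the same alleles except IL-10F/F. The YC group (n = 4) held B220+ YFP+ germinal centre B cells of YFPstopF/+ Cg1Cre/+ mice that had no lymphoma. These mice received 2 injections of sheep red blood cells, 20 days apart, and their cells were taken 10 days after the later one. All mice were C57BL/6, and Cre was driven in each group by the Cγ1 locus, which is switched on in germinal centre B cells. The pBIC10 libraries came from 2 females and 1 male, the pBIC libraries from females, and the YC libraries from 3 females and 1 male. In places the labels of YC carry the lymphoma wording, and the series design was followed there. The pBIC and YC libraries come from an earlier series, so that series and group cannot be told apart for pBIC10.

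Libraries held 12.6 to 19.1 M counts, and a count of 0 allowed a level of up to 0.157 to 0.238 counts per M (CPM) in a single library. Trp53 lay at 36.6 to 49.7 CPM in pBIC10 and 18.3 to 53.3 CPM in pBIC, against 176 to 198 CPM in YC. Il10 lay at 1.99 to 4.77 CPM in pBIC10, against 6.84 to 19.4 CPM in pBIC. In YC it lay at 4.23 to 9.98 CPM, which overlapped both lymphomas. The summed level of 6 B cell markers was 2297 to 3787 CPM in pBIC10, 1301 to 2808 CPM in pBIC and 6106 to 7603 CPM in YC. Of other cell types, 6 T cell markers summed to 2.40 to 5.43 CPM in pBIC10, 14.2 to 32 CPM in pBIC and 84.6 to 253 CPM in YC. In the same order, 4 natural killer (NK) cell markers summed to 0.82 to 2.06, 3.27 to 14.9 and 14.6 to 45.5 CPM. The 6 myeloid markers summed to 24.8 to 31.6, 125 to 155 and 113 to 169 CPM. In pBIC most of that sum was Cd68, at 115, 100 and 117 CPM, against 13.2 to 23.7 CPM in pBIC10 and 26.8 to 32.8 CPM in YC. Csf1r, Itgam, Adgre1 and S100a8 were lower in every pBIC library than in every YC library, and overlapped between the lymphomas. Lyz2 lay at 1.03 to 1.82 CPM in pBIC10 and 3.16 to 44 CPM in pBIC, without overlap. In YC it lay at 23.3 to 71.5 CPM, which overlapped pBIC through replicate 2. The 5 plasma cell markers summed to 227 to 257 CPM in pBIC10, 338 to 566 CPM in pBIC and 1217 to 2728 CPM in YC, and the 6 germinal centre markers to 36 to 63.7, 65.2 to 82.5 and 543 to 1032 CPM. The 6 erythroid markers summed to 623 to 1609 CPM in pBIC10, 32.1 to 653 CPM in pBIC and 182 to 539 CPM in YC, with 0 markers of any list at 0 counts in a whole group. The leading heavy-chain variable segment was Ighv7-3 in every pBIC10 library (67.4 to 70.5% of such counts) and Ighv8-11 in every pBIC library (51.6 to 59.1%). Libraries within each lymphoma group thus shared a segment, and p-values measure only the spread between these libraries.

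One pBIC library stood apart before any test. The summed level of all 90 members was 9928, 10250 and 9043 CPM in pBIC10, against 8663, 14870 and 13276 CPM in pBIC, and 7266, 6218, 7314 and 7025 CPM in YC. All 6 lymphoma libraries lay above all 4 YC libraries, but pBIC replicate 1 lay below the pBIC10 libraries and the other two pBIC libraries far above them. Relative to the YC mean, the median log2 level of the 85 tested members was 0.33, 0.37 and 0.38 in pBIC10, against 0.35, 1.16 and 0.95 in pBIC. The 81 cytosolic ribosomal protein genes showed the same library low within pBIC, at 0.38, 0.33 and 0.37 in pBIC10 and 0.56, 1.18 and 0.93 in pBIC. Counts of called members that rest on pBIC, over all complexes and for each, are therefore also given without replicate 1. That library was singled out by its low level of these same members. A shift of pBIC upwards without it follows from that choice, and the counts without it are no further support. In these bulk libraries, fewer cells of a type and less RNA per cell cannot be told apart.

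**Figure D1:**
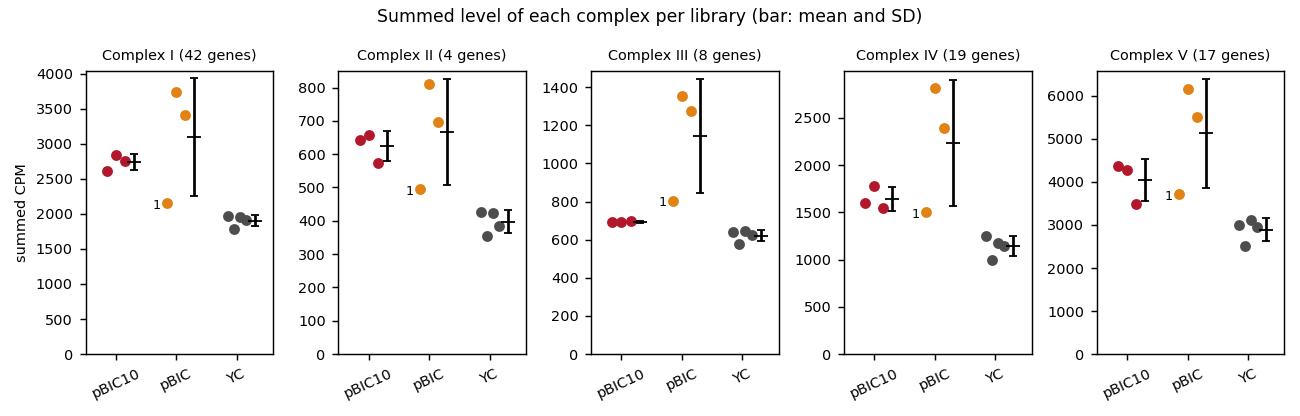
Summed CPM (y axis) of the members of each complex in every library, with pBIC10, pBIC and YC on the x axis. Points are libraries, bars are the mean and SD, and the digit 1 marks pBIC replicate 1; for complex III the pBIC10 libraries sum to 691, 692 and 699 CPM, below every pBIC library.

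Measured per kilobase of exon, members of complexes IV and V held the highest levels. Atp5a1, the alpha subunit of the catalytic head of ATP synthase, averaged 443 CPM per kb in pBIC10, 427 in pBIC and 248 in YC. Cox8a, a small subunit of cytochrome c oxidase, averaged 260 CPM per kb in pBIC10, 434 in pBIC and 254 in YC. Uqcr10, a small subunit of complex III, averaged 124 CPM per kb in pBIC10, 337 in pBIC and 111 in YC. These exon lengths come from an annotation of an earlier genome build and were missing for Atp5o and Ndufb4b.

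The pBIC group is the lymphoma that does not carry IL-10F/F, and YC holds non-malignant germinal centre B cells. Between pBIC and YC, 68 of 85 members were higher and 1 was lower (edgeR quasi-likelihood test, adjusted p under 0.05). The median log2 fold change was 0.84, and 84 of 85 members had a positive value. Of all 17718 genes tested, 26.4% were higher and 27.7% lower (54.1% in either direction), with a median of 0.02. By complex, 32 of 42 members were higher in complex I, 3 of 4 in complex II, 8 of 8 in complex III, 11 of 14 in complex IV and 14 of 17 in complex V, with medians of 0.76, 0.76, 0.92, 0.89 and 0.95. All pBIC libraries lay above all YC libraries for 60 members and below them for 1, against 26.3% and 28.0% of all genes. Without pBIC replicate 1, 77 members were higher and 1 was lower, with a median of 1.03. By complex that gave 37 higher in complex I, 3 in complex II, 8 in complex III, 12 in complex IV and 17 in complex V, beside 25.4% of all genes. The B cell, germinal centre, plasma cell and T cell sums given above were all lower in pBIC than in YC, and the NK sums overlapped, and their part in the shift was not tested.

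Between pBIC10 and YC, 31 of 85 members were higher and 1 was lower, with a median log2 fold change of 0.36. Of all genes, 24.8% were higher and 26.9% lower (51.7% in either direction), with a median of 0.01. By complex, 16 of 42 were higher in complex I, 3 of 4 in complex II, 1 of 8 in complex III, 7 of 14 in complex IV and 4 of 17 in complex V. Their medians were 0.41, 1.06, 0.14, 0.46 and 0.34. All pBIC10 libraries lay above all YC libraries for 46 members and below them for 4, against 30.0% and 31.0% of all genes. The B cell, germinal centre, plasma cell, T cell, NK and myeloid sums were all lower in pBIC10 than in YC and the erythroid sum was higher, and their part was not tested.

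The pBIC10 and pBIC groups differ in the Il10 allele, the series they come from, the leading heavy-chain segment and the sexes of the mice. Between pBIC10 and pBIC, 6 of 85 members were higher and 24 were lower, with a median log2 fold change of -0.43. Of all genes, 15.6% were higher and 15.1% lower (30.7% in either direction), with a median of -0.01. Complex III held 5 lower of 8, complex V 9 of 17, complex IV 4 of 14, complex I 6 of 42 and complex II 0 of 4, with medians of -0.75, -0.54, -0.52, -0.33 and -0.08. All pBIC10 libraries lay below all pBIC libraries for 21 members and above them for 6, against 19.7% and 22.1% of all genes. Without pBIC replicate 1, 3 members were higher and 48 were lower with a median of -0.64, beside 16.7% and 16.0% of all genes. Those called lower were then 7 of 8 in complex III, 11 of 17 in complex V, 9 of 14 in complex IV, 20 of 42 in complex I and 1 of 4 in complex II, with medians of -0.91, -0.71, -0.73, -0.51 and -0.21. The number called was 51 without that library, 13 without pBIC10 replicate 1, 19 without pBIC10 replicate 2, 15 without pBIC10 replicate 3 and 17 without pBIC replicate 2, against 30 with all. The lower numbers are given without the share of all genes called, so they may reflect a general loss of calls. Myeloid, T cell, NK, plasma cell and germinal centre sums were lower in pBIC10, the myeloid sum mostly through Cd68. The erythroid sum reached higher, and the part of these cell types was not tested.

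**Figure D2:**
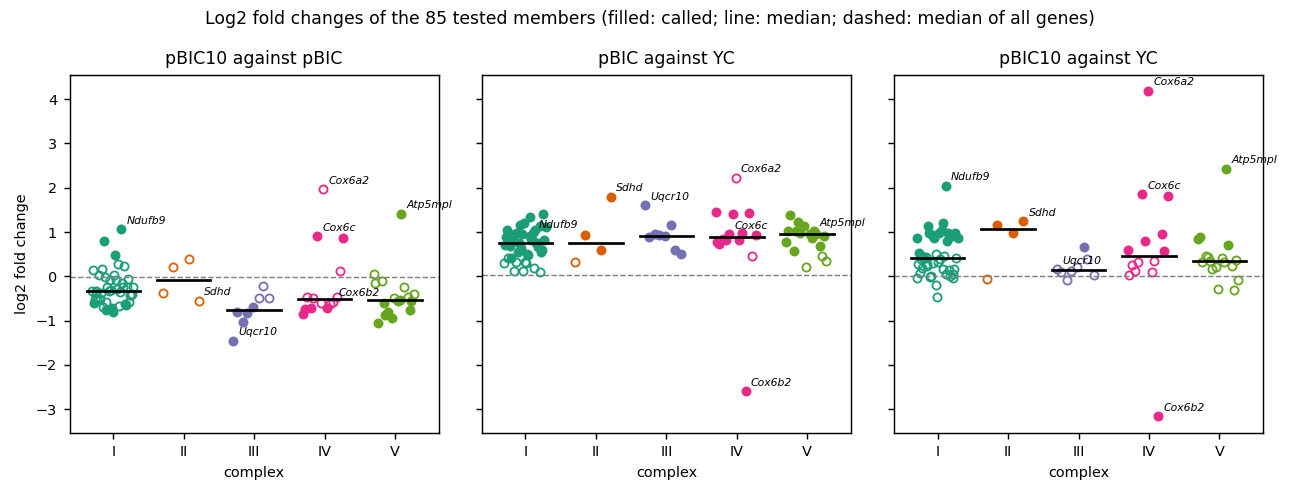
Log2 fold change (y axis) of each tested member by complex (x axis) in the 3 comparisons. Filled points passed the adjusted p of 0.05, black lines are medians per complex, and the dashed line is the median of all genes; against YC the pBIC points lie above 0 in all but Cox6b2, and the medians of pBIC10 against pBIC lie between -0.75 and -0.08.

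Complex I takes electrons from NADH. Its 7 nuclear core subunits include the carriers of the flavin and the iron-sulfur clusters, and the accessory subunits surround them. Ndufv2, a core subunit of the NADH-binding module, had 123, 131 and 125 CPM in pBIC10, against 107, 182 and 162 CPM in pBIC and 74.7, 66.3, 76 and 74.3 CPM in YC. Every lymphoma library lay above every YC library, and the pBIC libraries spanned the pBIC10 ones. The log2 fold change was 1.05 ± 0.17 (SE, adjusted p = 0.000293) for pBIC over YC, 0.80 ± 0.17 (adjusted p = 0.00197) for pBIC10 over YC and -0.25 ± 0.19 (adjusted p = 0.342) in pBIC10 against pBIC.

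The other core subunits took different directions in pBIC10 against pBIC. Ndufs1, the largest iron-sulfur subunit, had 132, 154 and 134 CPM in pBIC10, against 95.9, 115 and 89.1 CPM in pBIC and 69.2, 63.7, 81.3 and 68 CPM in YC. The 3 groups were fully separated in that order. Its log2 fold change was 0.49 ± 0.16 (adjusted p = 0.0360) in pBIC10 against pBIC, and the call was lost in 12 of 23 alternatives. Ndufs8, which carries a pair of clusters next to the quinone site, had 56.4, 67.4 and 61.7 CPM in pBIC10, against 67.8, 144 and 110 CPM in pBIC and 89.5, 77.9, 94.9 and 80.8 CPM in YC. It was lowest in pBIC10, without overlap with either other group. Its fold change was -0.80 ± 0.23 against pBIC (adjusted p = 0.0185) and -0.47 ± 0.22 against YC (adjusted p = 0.0825), and the call against pBIC was lost in 4 of 23 alternatives.

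Ndufs3, a core subunit of the quinone-binding module, also fell in pBIC10 against pBIC (-0.62 ± 0.19, adjusted p = 0.0262), a call lost in 9 of 23 alternatives, 5 of them with 1 library left out (adjusted p up to 0.131). Ndufs7 had a log2 fold change of -0.58 ± 0.22 there (adjusted p = 0.0607) and Ndufv1 -0.37 ± 0.18 (adjusted p = 0.145). Against YC, pBIC was higher in Ndufv1 (0.77 ± 0.17, adjusted p = 0.00207), Ndufs3 (0.76 ± 0.18, adjusted p = 0.00292) and Ndufs7 (0.54 ± 0.20, adjusted p = 0.0381). The groups overlapped for Ndufs7, with pBIC replicate 1 at 53.7 CPM beside 54.6 to 61.6 CPM in YC, and its call was lost in 12 of 23 alternatives, 6 of them with 1 library left out (adjusted p up to 0.151). Among accessory subunits, Ndufc2 had 111, 91.4 and 95.7 CPM in pBIC10, against 85.5, 168 and 145 CPM in pBIC and 54.3, 40, 48.8 and 57 CPM in YC. Both lymphomas lay above YC without overlap, at 1.41 ± 0.21 for pBIC (adjusted p = 0.000150) and 0.99 ± 0.21 for pBIC10 (adjusted p = 0.00182). Ndufa10 averaged 237 ± 15.3 CPM in pBIC10 and 195 ± 53.8 CPM in pBIC (SD, n = 3 each), against 103 ± 4.17 CPM in YC (SD, n = 4), and was higher in pBIC10 than in YC by 1.20 ± 0.18 (edgeR adjusted p = 0.000134). Ndufv3, a small flavoprotein subunit, was lower in pBIC10 than in pBIC (-0.75 ± 0.20, adjusted p = 0.0126).

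Called higher in pBIC10 than in pBIC, beside Ndufs1, were Ndufb9 and Ndufb1. Ndufb9, an accessory subunit of the membrane arm encoded on chromosome 15, had 201, 208 and 166 CPM in pBIC10, against 58.2, 109 and 106 CPM in pBIC and 50.6, 40.9, 42.8 and 50.9 CPM in YC. Its share of complex I counts was 6.06 to 7.68% in pBIC10, 2.70 to 3.12% in pBIC and 2.20 to 2.65% in YC. The 3 groups did not overlap in level or in share. The log2 fold change was 1.07 ± 0.22 in pBIC10 against pBIC (adjusted p = 0.00303), and 2.05 ± 0.21 in pBIC10 against YC (adjusted p = 7.52e-06). Of the 50-base stretches of its transcript, 15.6% also occur in another annotated gene. Ndufb1, a small membrane-arm subunit encoded on chromosome 12, had 74.1, 45.4 and 61.9 CPM in pBIC10, against 23.3, 39.8 and 41 CPM in pBIC and 35.4, 22.8, 25.4 and 26.6 CPM in YC. Only pBIC10 stood apart from both other groups, by 0.80 ± 0.26 against pBIC (adjusted p = 0.0306).

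Complex II, succinate dehydrogenase, oxidises succinate to fumarate in the TCA cycle. The flavoprotein Sdha and the iron-sulfur protein Sdhb form its catalytic head, and Sdhc and Sdhd anchor it in the membrane. Sdhd had 120, 110 and 119 CPM in pBIC10, against 111, 195 and 204 CPM in pBIC and 45.5, 44.1, 54 and 51.6 CPM in YC. Every lymphoma library held more than any YC library, and the lymphoma groups overlapped. Its log2 fold change of 1.80 ± 0.20 in pBIC against YC had the smallest adjusted p of all members in that comparison (1.30e-05), and pBIC10 exceeded YC by 1.25 ± 0.20 (adjusted p = 0.000172). In pBIC10 against pBIC the value was -0.55 ± 0.21 (adjusted p = 0.0635).

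The other membrane anchor, Sdhc, had 107, 124 and 111 CPM in pBIC10, against 67.1, 121 and 108 CPM in pBIC and 54.1, 46.8, 54.5 and 50.9 CPM in YC. Both lymphomas were again above YC, by 1.15 ± 0.19 in pBIC10 (adjusted p = 0.000246) and 0.94 ± 0.19 in pBIC (adjusted p = 0.00104). Sdhb had 256, 206 and 177 CPM in pBIC10, against 97.5, 212 and 179 CPM in pBIC and 121, 94.9, 119 and 98.1 CPM in YC. It rose in pBIC10 against YC (0.98 ± 0.23, adjusted p = 0.00342), and the call in pBIC against YC (0.59 ± 0.23, adjusted p = 0.0465) was lost in 14 of 23 alternatives. Sdha had 158, 217 and 169 CPM in pBIC10, 218, 282 and 205 CPM in pBIC and 205, 168, 196 and 184 CPM in YC. Its groups overlapped, with 0 calls in the 3 comparisons (adjusted p of 0.131, 0.121 and 0.807). Sdha made up 24.7 to 33% of complex II counts in pBIC10 and 29.4 to 44.1% in pBIC, against 46.3 to 48.2% in YC, where the lymphoma libraries all lay below the YC libraries.

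The promoter of Sdhd is shown because this member separated both lymphomas from YC. The 250 bases before its start site lie at chr9:50603850-50604099 on the minus strand (GRCm38.p6, RefSeq, an earlier build than that of the counts). Capitals mark a match to the motif of NRF1, a regulator of respiratory chain genes (its core of 10 bases with any base at the sixth position, bases -79 to -70), and a match to the motif of ETS factors including GABP (CCGGAAG, on the other strand at bases -46 to -40).
Sdhd: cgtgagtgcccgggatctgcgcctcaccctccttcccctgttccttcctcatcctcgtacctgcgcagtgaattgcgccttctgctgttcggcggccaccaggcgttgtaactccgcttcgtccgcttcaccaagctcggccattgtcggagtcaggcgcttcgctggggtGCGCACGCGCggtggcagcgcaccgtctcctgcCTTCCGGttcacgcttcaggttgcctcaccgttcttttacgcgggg

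Complex III, cytochrome bc1, moves electrons from ubiquinol to cytochrome c. It showed the lowest median of any complex in pBIC10 against pBIC, and all 8 members had a negative value there. Uqcr10, a small subunit on chromosome 11, had 74.5, 74.3 and 67.8 CPM in pBIC10, against 125, 225 and 239 CPM in pBIC and 62.9, 59.8, 73.6 and 62.6 CPM in YC. All pBIC libraries, replicate 1 included, lay far above the pBIC10 and YC libraries, which overlapped each other. The ratio was 0.367 in pBIC10 against pBIC (log2 -1.45 ± 0.22, adjusted p = 0.000320), and pBIC exceeded YC 3.04-fold (1.60 ± 0.20, adjusted p = 3.53e-05). In pBIC10 against YC the value was 0.16 ± 0.20 (adjusted p = 0.534). Its share of complex III counts was 9.7 to 10.8% in pBIC10, 15.6 to 18.7% in pBIC and 9.84 to 11.4% in YC.

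Uqcrb, a ubiquinone-binding subunit, had 21.1, 24.7 and 20.9 CPM in pBIC10, against 35.8, 59.8 and 41.7 CPM in pBIC and 24.7, 23.2, 22.8 and 23.6 CPM in YC. The same arrangement was seen, with pBIC above and the other groups overlapping. It differed by -1.04 ± 0.21 in pBIC10 against pBIC (adjusted p = 0.00210), and 25.5% of its 50-base stretches occur in other annotated genes. Uqcrfs1, the Rieske iron-sulfur protein, had 82.9, 82.3 and 92.9 CPM in pBIC10, against 101, 173 and 175 CPM in pBIC and 87.3, 68.7, 78.2 and 88.6 CPM in YC. Here too only pBIC stood apart, with -0.80 ± 0.21 in pBIC10 against pBIC (adjusted p = 0.0110) and 0.89 ± 0.19 in pBIC against YC (adjusted p = 0.00178). The core protein Uqcrc2 differed by -0.70 ± 0.18 in pBIC10 against pBIC (adjusted p = 0.00994), and the median of its 40 nearest tested genes on the chromosome was -0.56.

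The call for Uqcrq in pBIC10 against pBIC (-0.82 ± 0.25, adjusted p = 0.0235) came with overlapping groups, since pBIC replicate 1 lay at 73.7 CPM beside 75.9, 77.2 and 76.4 CPM in pBIC10. The members of complex III that were not called lower there were the core protein Uqcrc1 (-0.49 ± 0.19, adjusted p = 0.0727), the hinge protein Uqcrh (-0.21 ± 0.18, adjusted p = 0.421) and Uqcr11 (-0.50 ± 0.24, adjusted p = 0.127). Uqcr11 was the 1 member of the complex called in pBIC10 against YC (0.66 ± 0.22, adjusted p = 0.0235). Within single libraries, the summed level of complex III over that of complex II was 1.08, 1.05 and 1.22 in pBIC10, against 1.63, 1.67 and 1.83 in pBIC and 1.5, 1.63, 1.52 and 1.62 in YC. This ratio was lowest in the pBIC10 libraries, also against pBIC replicate 1. Complex III made up 6.75 to 7.73% of the members' CPM in pBIC10, 9.10 to 9.62% in pBIC and 8.79 to 9.28% in YC. These ratios are given as a description, without a test.

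The promoter of Uqcr10 is shown because this member had the largest fall of pBIC10 against pBIC. Its 250 bases lie at chr11:4704345-4704594 on the minus strand (GRCm38.p6, RefSeq). It holds none of the motifs searched first, and the capitals mark 2 matches to the motif of ZNF143, a zinc finger factor of housekeeping promoters (12 bases with any base at the seventh and the eighth), at bases -231 to -220 (on the other strand) and -58 to -47. This motif was added to the search after these sequences had been read.
Uqcr10: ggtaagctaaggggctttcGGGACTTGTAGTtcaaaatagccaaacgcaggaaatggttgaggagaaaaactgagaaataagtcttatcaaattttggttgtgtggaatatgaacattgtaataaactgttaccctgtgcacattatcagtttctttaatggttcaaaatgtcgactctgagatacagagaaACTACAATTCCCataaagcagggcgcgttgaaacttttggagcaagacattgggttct

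**Figure D3:**
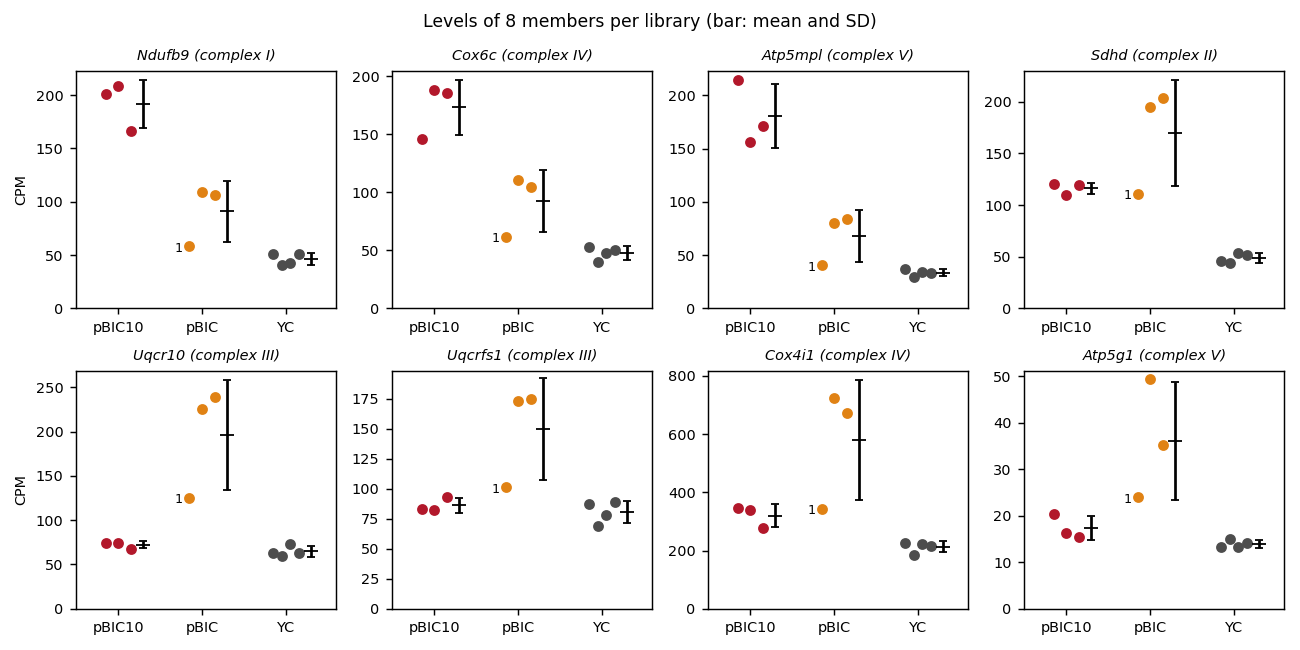
CPM (y axis) of 8 members in every library, with pBIC10, pBIC and YC on the x axis; points are libraries, bars the mean and SD, and the digit 1 marks pBIC replicate 1. Ndufb9, Cox6c and Atp5mpl are highest in pBIC10, whereas Uqcr10, Uqcrfs1 and Atp5g1 are highest in pBIC.

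Complex IV, cytochrome c oxidase, passes electrons to oxygen. Cox4i1, its ubiquitous regulatory subunit 4, had 345, 339 and 276 CPM in pBIC10, against 344, 724 and 673 CPM in pBIC and 226, 185, 224 and 214 CPM in YC. Both lymphomas lay above YC, and pBIC replicate 1 lay within the pBIC10 range. pBIC exceeded YC by 1.45 ± 0.22 (adjusted p = 0.000146) and pBIC10 exceeded YC by 0.59 ± 0.22 (adjusted p = 0.0368), a call lost in 7 of 23 alternatives. In pBIC10 against pBIC it fell by 0.86 on the log2 scale (SE 0.24, adjusted p = 0.0151), and by 1.11 without pBIC replicate 1. That call was lost in 3 of 23 alternatives.

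Cox7b, a small subunit encoded on the X chromosome, had 102, 124 and 140 CPM in pBIC10, against 115, 211 and 182 CPM in pBIC and 61.5, 62.7, 64.4 and 65 CPM in YC. The YC libraries were tightly grouped below all others. The log2 fold change was 1.42 ± 0.20 for pBIC over YC (adjusted p = 7.17e-05) and 0.95 ± 0.19 for pBIC10 over YC (adjusted p = 0.00128). Cox7c rose in both as well, by 1.40 ± 0.22 in pBIC (adjusted p = 0.000184) and 0.80 ± 0.22 in pBIC10 (adjusted p = 0.00848). Lower in pBIC10 than in pBIC were Cox7a2l (-0.71 ± 0.18, adjusted p = 0.00816), Cox8a (-0.74 ± 0.22, adjusted p = 0.0206) and Cox7a2 (-0.71 ± 0.22, adjusted p = 0.0279). The call was lost in 6 of 23 alternatives for Cox8a (adjusted p up to 0.0927) and in 8 of 23 for Cox7a2 (adjusted p up to 0.101).

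The promoter of Cox7b, the complex IV member with the smallest adjusted p in pBIC against YC, lies at chrX:106015450-106015699 on the plus strand (GRCm38.p6, RefSeq). Capitals mark its match to the ZNF143 motif, at bases -82 to -71.
Cox7b: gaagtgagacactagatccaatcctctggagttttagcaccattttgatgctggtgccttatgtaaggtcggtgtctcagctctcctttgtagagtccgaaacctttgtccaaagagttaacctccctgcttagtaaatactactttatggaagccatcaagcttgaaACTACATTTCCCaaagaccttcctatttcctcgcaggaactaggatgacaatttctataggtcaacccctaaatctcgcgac

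Cox6c, a small subunit encoded on chromosome 15, went the other way. It had 146, 188 and 186 CPM in pBIC10, against 61.9, 111 and 105 CPM in pBIC and 53.2, 39.9, 47.9 and 50.1 CPM in YC. The 3 groups were fully separated, with pBIC10 highest. It differed by 0.90 ± 0.22 in pBIC10 against pBIC (adjusted p = 0.00717) and by 1.86 ± 0.20 in pBIC10 against YC (adjusted p = 1.29e-05). Its share of complex IV counts was 9.12 to 12.1% in pBIC10, 3.94 to 4.40% in pBIC and 4.01 to 4.36% in YC. The pseudogene Cox6c2 on chromosome 12 shares 52.7% of its 50-base stretches with Cox6c, and reads of the pair may have been split between them. It had 32.3, 37.8 and 38.8 CPM in pBIC10, against 11.8, 24.5 and 23.1 CPM in pBIC and 11.7, 9.25, 8.13 and 12.4 CPM in YC, with 0.87 ± 0.27 in pBIC10 against pBIC (adjusted p = 0.0272).

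Complex IV has tissue isoforms, and the ubiquitous forms Cox4i1, Cox6b1, Cox7b and Cox8a held at least 99.3% of the length-scaled level of their sets in every library. Cox4i2, the form of lung and hypoxic cells, had 0 counts in all lymphoma libraries, which allows up to 0.056 CPM over the pBIC10 group and 0.0545 CPM over the pBIC group, and 0.741, 0.164, 0.141 and 0.57 CPM in YC. The heart and muscle form Cox7a1 averaged 0.33 ± 0.185 CPM in pBIC10, 0.346 ± 0.166 CPM in pBIC and 0.315 ± 0.0631 CPM in YC. Cox7b2, Cox8b and Cox8c, forms with restricted expression such as testis or muscle, were at or below 0.214 CPM in every library. Cox7a2l was set beside Cox7a1 and Cox7a2 by name and not as a tissue form. It held 65.1 ± 1.79% of this trio in pBIC10, 65.7 ± 4.41% in pBIC and 64.5 ± 2.30% in YC, so that its share differed by less than the spread between libraries. Without exon length its shares were 74.6%, 75% and 74.1% in the same order.

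A pair of minor isoforms was called. Cox6b2, the testis form of subunit 6b, was the only member called lower in either lymphoma than in YC. It had 0.177, 0.176 and 0.0513 CPM in pBIC10, against 0, 0.113 and 0.482 CPM in pBIC and 1.04, 1.23, 0.92 and 1.78 CPM in YC. All libraries of both lymphomas lay below YC, at -3.16 ± 0.82 for pBIC10 (adjusted p = 0.00575) and -2.60 ± 0.77 for pBIC (adjusted p = 0.0120), at levels of a few counts per library. Cox6a2, the heart and muscle form of subunit 6a, had 0.118, 0.234 and 26.5 CPM in pBIC10, against 2.09, 3.17 and 1.61 CPM in pBIC and 0.593, 0.409, 0.0707 and 0.856 CPM in YC. Its call in pBIC10 against YC (4.19 ± 1.39, adjusted p = 0.0247) rests on pBIC10 replicate 3, without which the value was -1.4 (adjusted p = 0.200).

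Complex V, ATP synthase, makes ATP in its F1 head while the ring of c subunits turns in the membrane. In the head, Atp5a1 had 1550, 1599 and 1013 CPM in pBIC10, against 1030, 1465 and 1522 CPM in pBIC and 809, 637, 857 and 807 CPM in YC. Both lymphomas lay above YC and overlapped each other. The log2 fold change was 0.84 ± 0.20 in pBIC10 against YC (adjusted p = 0.00301), 0.78 ± 0.20 in pBIC against YC (adjusted p = 0.00438) and 0.05 ± 0.21 in pBIC10 against pBIC (adjusted p = 0.882). Its partner Atp5b, the catalytic beta subunit, had 1260, 1161 and 1004 CPM in pBIC10, against 1208, 2008 and 1762 CPM in pBIC and 898, 790, 1022 and 957 CPM in YC. Atp5b was called lower in pBIC10 than in pBIC (-0.54 ± 0.19, adjusted p = 0.0492), with pBIC replicate 1 inside the pBIC10 range. Atp5a1 made up 29.1 to 37.4% of complex V counts in pBIC10, 23.8 to 27.7% in pBIC and 25.4 to 27.4% in YC, and Atp5b 27.1 to 28.8%, 32 to 32.6% and 30 to 32.7% in the same order.

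Several genes encode the same mature c subunit. Atp5g1 had 20.4, 16.3 and 15.5 CPM in pBIC10, against 24, 49.3 and 35.1 CPM in pBIC and 13.2, 15.1, 13.2 and 14.2 CPM in YC. Each pBIC library lay above the pBIC10 libraries, and these lay just above YC. It differed by -1.05 ± 0.25 in pBIC10 against pBIC (adjusted p = 0.00641) and 1.38 ± 0.23 in pBIC against YC (adjusted p = 0.000310). Atp5g3, which held 74.6 ± 7.85% of the length-scaled level of the trio in pBIC10, 79.2 ± 2.5% in pBIC and 80.1 ± 0.818% in YC, differed by -0.80 ± 0.21 in pBIC10 against pBIC (adjusted p = 0.0129). Without exon length these shares were 75.6%, 78.4% and 80.2%. Atp5g2 had 62.9 CPM in pBIC10 replicate 1, beside 33.2 and 33.5 CPM in the other two pBIC10 libraries, and 38.3% of its 50-base stretches occur in other genes. In the stalk, Atp5o had 130, 129 and 137 CPM in pBIC10, against 166, 303 and 259 CPM in pBIC and 117, 91.2, 107 and 100 CPM in YC. The groups were fully separated with pBIC highest, at -0.88 ± 0.20 in pBIC10 against pBIC (adjusted p = 0.00558) and 1.22 ± 0.19 in pBIC against YC (adjusted p = 0.000161).

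Atp5mpl, which encodes a small protein bound to ATP synthase and lies on chromosome 12, had 214, 156 and 171 CPM in pBIC10, against 40.4, 80.2 and 83.6 CPM in pBIC and 37.5, 29.4, 33.9 and 33.2 CPM in YC. All 3 groups were separated, with pBIC10 highest. This was the largest called rise of any member in pBIC10 against pBIC (1.41 ± 0.25, adjusted p = 0.000916), and in pBIC10 against YC it reached 2.43 ± 0.23 (adjusted p = 4.52e-06), where Cox6a2 alone had a larger value. Its share of complex V counts was 3.66 to 4.91% in pBIC10, 1.09 to 1.52% in pBIC and 1.08 to 1.26% in YC. The ATPase inhibitor gene Atpif1, outside the name rule, had 117, 128 and 88.2 CPM in pBIC10, against 78.1, 151 and 140 CPM in pBIC and 32.5, 27.8, 34.4 and 34.8 CPM in YC. Both lymphomas were above YC, by 1.78 ± 0.22 in pBIC10 (adjusted p = 3.19e-05) and 1.92 ± 0.22 in pBIC (adjusted p = 1.88e-05).

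**Figure D4:**
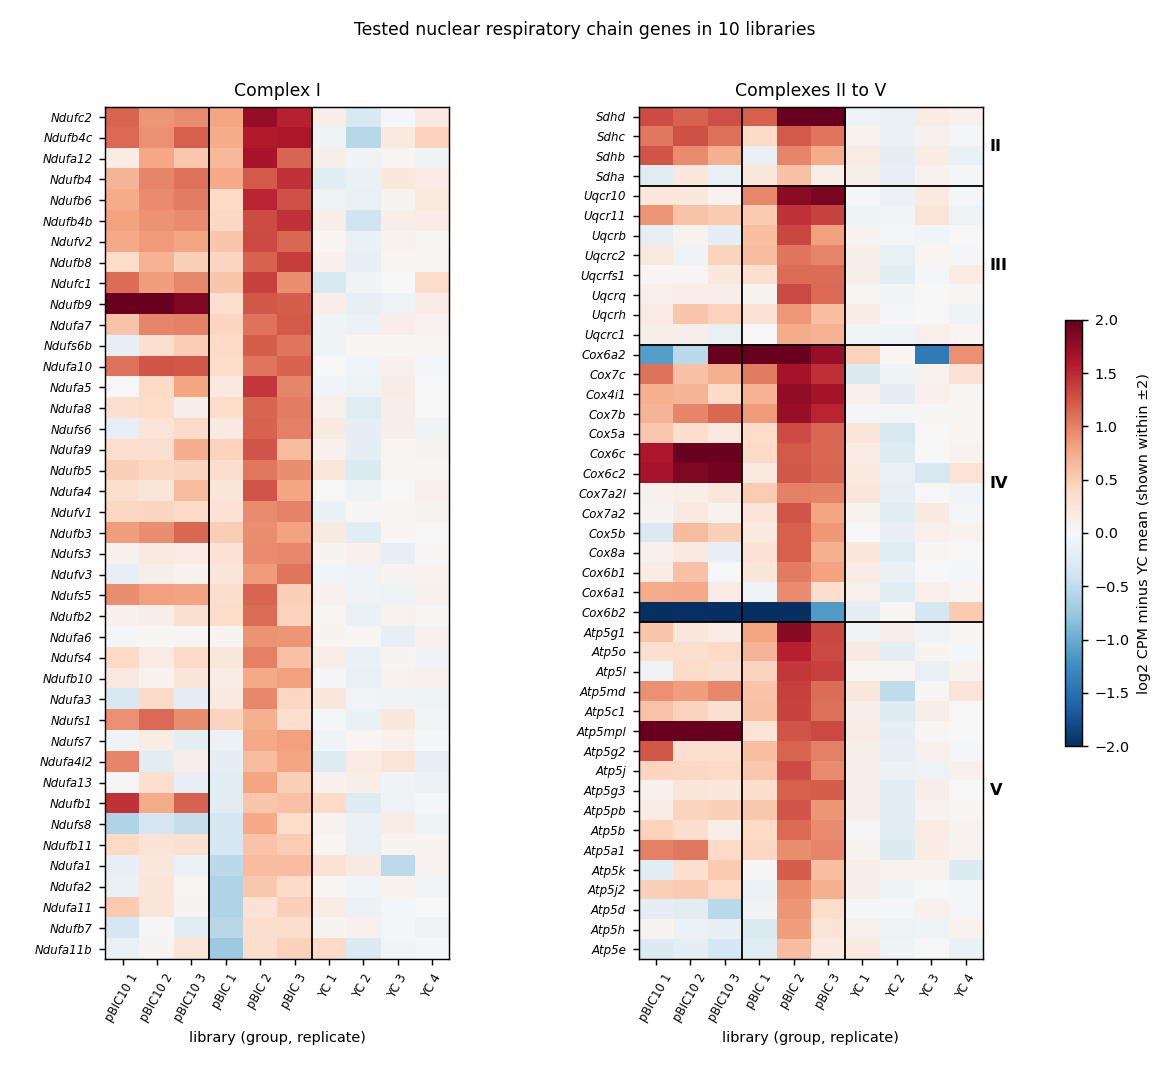
Log2 CPM minus the YC mean (colour, shown within ±2) for 84 of the 85 tested members (rows, by complex and then by their mean in pBIC) in the 10 libraries (columns). pBIC replicates 2 and 3 are raised in most rows, pBIC replicate 1 is paler than they are, and Ndufb9, Cox6c, Cox6c2 and Atp5mpl are darkest in pBIC10.

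Without pBIC replicate 1, Ndufb9 (0.84, adjusted p = 0.00309), Cox6c (0.69, adjusted p = 0.0111) and Atp5mpl (1.15, adjusted p = 0.000700) were still called higher in pBIC10 than in pBIC. Ndufb1 (0.59, adjusted p = 0.0799), Cox6c2 (0.62, adjusted p = 0.0541) and Ndufs1 (0.47, adjusted p = 0.0543) were not. All 6 members called higher in pBIC10 than in pBIC were compared with the genes beside them. For each member, the median log2 fold change of the 40 nearest tested genes on its chromosome (20 on each side in RefSeq order) was taken. Around Atp5mpl this median was 1.56, around Ndufb9 1.49, around Cox6c 1.35 and around Ndufb1 0.86. It was -0.35 around Cox6c2 and 0.16 around Ndufs1, the other members called higher. Of the 85 tested members, 6 had a neighbour median above 0.5 (those 4, Cox5b and Sdhb), beside 6.47% of the 17362 genes with such a median. Over the 24 members called lower the neighbour medians had a median of -0.10, and around Uqcr10 the value was -0.02.

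With each library's neighbour median taken off every gene, an alternative added after the data had been seen, the log2 fold change in pBIC10 against pBIC was -0.34 for Ndufb9 (adjusted p = 0.209), -0.41 for Cox6c (adjusted p = 0.297), -0.32 for Atp5mpl (adjusted p = 0.417) and -0.08 for Ndufb1 (adjusted p = 0.859). Cox6c2 stayed higher (1.15, adjusted p = 0.00460), although its reads may come from Cox6c. In this setting 1 member was higher and 17 were lower, against 6 and 24 without it. The share of all genes called in this setting is not given beside these counts. Uqcr10 remained lower at -1.37 (adjusted p = 0.000417), and Uqcrc2 was no longer called (-0.14, adjusted p = 0.614). Against YC, the same step gave 0.57 for Ndufb9 (adjusted p = 0.0171), 0.60 for Cox6c (adjusted p = 0.0709) and 0.93 for Atp5mpl (adjusted p = 0.00972) in pBIC10. Myc, also on chromosome 15, had 1615, 1320 and 3204 CPM in pBIC10, against 683, 688 and 855 CPM in pBIC and 224, 456, 259 and 299 CPM in YC. It differed by 1.46 ± 0.33 in pBIC10 against pBIC (adjusted p = 0.00552), with a neighbour median of 0.87.

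**Figure D5:**
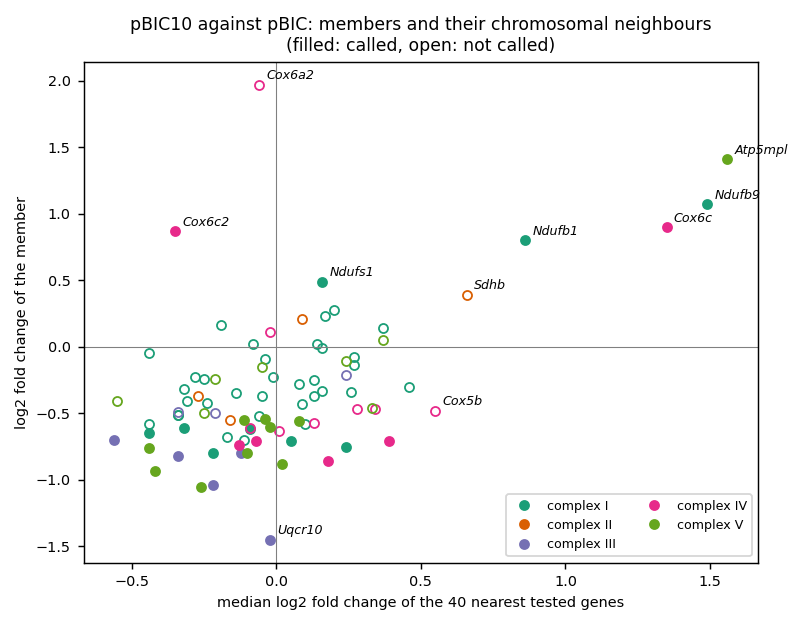
Log2 fold change of each tested member in pBIC10 against pBIC (y axis) by the median log2 fold change of its 40 nearest tested genes (x axis); filled points were called. Atp5mpl, Ndufb9, Cox6c and Ndufb1 lie at neighbour medians between 0.86 and 1.56, while Uqcr10 lies at -0.02.

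Genes that serve the chain without being members were taken from companion lists. Their counts of higher and lower genes stand beside 15.6% and 15.1% of all genes in pBIC10 against pBIC, 26.4% and 27.7% for pBIC over YC, and 24.8% and 26.9% for pBIC10 over YC. Without pBIC replicate 1, the channel, import and carrier list had 8 lower in pBIC10 against pBIC in place of 3, the ribosomal list 56 in place of 43, and Dhodh and Sdhaf1 were no longer called there. Of 10 genes for cytochrome c and electron entry, 7 were higher and 1 lower for pBIC over YC, 4 and 1 for pBIC10 over YC, and 1 and 3 in pBIC10 against pBIC. Cycs, cytochrome c, averaged 43 ± 12.1 CPM in pBIC10 and 80.5 ± 31.1 CPM in pBIC, with a log2 fold change of -0.90 ± 0.27 (edgeR adjusted p = 0.0226) and a neighbour median of -0.91. Cyc1, the cytochrome c1 of complex III, averaged 116 ± 15.3 CPM in pBIC10 and 196 ± 54.4 CPM in pBIC (-0.77 ± 0.21, adjusted p = 0.0147), against 129 ± 15.6 CPM in YC. Etfb, part of the flavoprotein that carries electrons from fatty acid oxidation, differed by -0.84 ± 0.19 in pBIC10 against pBIC (adjusted p = 0.00537). Dhodh, which feeds electrons from pyrimidine synthesis, was higher there (0.79 ± 0.27, adjusted p = 0.0416).

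The assembly factors gave mixed counts. Of 19 tested genes for complex I assembly and for its carrier subunit, 2 were higher and 6 lower in pBIC10 against pBIC, 10 and 2 for pBIC over YC, and 6 and 3 for pBIC10 over YC. Of 22 for complex IV, the counts were 2 and 3, 11 and 1, and 8 and 3 in the same order. Lrpprc, which stabilises mitochondrial mRNAs, was higher in pBIC10 than in pBIC by 1.08 ± 0.15 (adjusted p = 0.000185) and than in YC by 1.97 ± 0.14 (adjusted p = 5.86e-07). Its neighbour medians were 0.66 and 0.28 in the same order. The 6 genes of complex V assembly gave 0 calls in pBIC10 against pBIC and 3 higher in each lymphoma against YC, where Tmem70 differed by 1.90 ± 0.19 in pBIC10 (adjusted p = 5.50e-06) and 1.96 ± 0.19 in pBIC (adjusted p = 5.13e-06). For complex II, Sdhaf1 was higher in pBIC10 than in pBIC (0.80 ± 0.23, adjusted p = 0.0184) as 1 of 4. For complex III, 6 factors gave 0 calls in pBIC10 against pBIC and 2 higher in each lymphoma against YC. Of 13 coenzyme Q synthesis genes, 0 were higher and 2 lower in pBIC10 against pBIC, 5 and 3 for pBIC over YC, and 3 and 4 for pBIC10 over YC.

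In the TCA cycle list, 12 of 18 genes were higher and 1 lower in pBIC10 against YC, 10 and 1 in pBIC against YC, and 2 and 4 in pBIC10 against pBIC. Without pBIC replicate 1 the counts were 13 and 1, 14 and 2, and 2 and 4 in the same order. Idh2, the mitochondrial NADP-dependent isocitrate dehydrogenase, was higher in pBIC10 than in pBIC (2.41 ± 0.18, adjusted p = 2.05e-06) and lower in pBIC than in YC (-1.70 ± 0.17, adjusted p = 7.88e-06). Cs, citrate synthase, was lower in pBIC10 than in pBIC (-0.81 ± 0.16, adjusted p = 0.00249). Of 16 genes for outer membrane channels, import and carriers, 9 were higher in pBIC10 and 13 in pBIC against YC, with 0 lower, and 3 were lower in pBIC10 against pBIC. The channel Vdac1 differed from YC by 1.08 ± 0.17 in pBIC10 (adjusted p = 0.000225) and by 1.56 ± 0.18 in pBIC (adjusted p = 1.63e-05). Among 20 tested regulators of mitochondrial biogenesis, 4 were higher and 2 lower in pBIC10 against pBIC, 8 and 4 for pBIC over YC, and 9 and 5 for pBIC10 over YC. Yy1, a zinc finger regulator, was higher in pBIC10 than in pBIC (0.87 ± 0.16, adjusted p = 0.00111), with a neighbour median of 0.62. Hif1a was lower there (-1.48 ± 0.19, adjusted p = 8.37e-05), with a neighbour median of -0.01.

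The cytosolic ribosomal protein genes, listed for comparison, had medians close to those of the members. Of 81 tested, 0 were higher and 43 lower in pBIC10 against pBIC (median -0.57, members -0.43), 74 higher and 0 lower for pBIC over YC (0.91, members 0.84), and 30 higher and 2 lower for pBIC10 over YC (0.35, members 0.36). Of 21 cell cycle genes, 3 were higher and 6 lower in pBIC10 against pBIC (median -0.36), 1 and 3 for pBIC over YC (-0.16), and 2 and 10 for pBIC10 over YC (-0.38).

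Promoters could be matched for 70 of the 90 members (75 promoters from RefSeq, 250 bases before to 50 after the start site, both strands searched). The NRF1 motif was found in 17 members (24.3%), beside 10.6% of tested genes and 5.19% of all genes with a promoter. The ETS and GABP motif was found in 17 members (24.3%), beside 19.2% of tested genes. The YY1 motif (AAGATGGC) was found in 10 members (14.3%), beside 5.12%, and all 10 were of complex I or V. The ZNF143 motif was found in 7 members (10%), beside 4.35%. It was added after promoters of members had been read, so this excess may follow in part from that choice. TATAAA was found in 8 members (11.4%), beside 9.94%, and CACGTG in 6 (8.57%), beside 11.2%. By complex, the NRF1 motif was found in 7 of 34 members of complex I, 2 of 3 of complex II, 1 of 5 of complex III, 1 of 13 of complex IV and 6 of 15 of complex V. A match describes these letters in this window and not a bound site.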

How the data were processed

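Poly(A) RNA of B cells sorted from 10 spleens was sequenced in single-end 50-base reads, per the labels. The table the authors deposited holds raw counts of reads for each gene, made with featureCounts after FastQC on GRCm39, per the submitters' processing notes. Not given in the sources used here are the aligner, the annotation release, the strand setting and the treatment of reads that map to several places, so reads of near-identical genes or of overlapping genes may be split or mixed. Members, lists and tests were chosen with earlier results of these data known.

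Genes were kept by filterByExpr (17718 of 46316) and fitted with edgeR 4.0.16 (R 4.3.3, TMM scaling, quasi-likelihood, robust) over all 10 libraries with 1 coefficient per group. P-values are two-sided and adjusted by Benjamini-Hochberg over all genes tested, and calls were made at an adjusted p under 0.05. The SE is the log2 fold change divided by the square root of F. The biological coefficient of variation was 0.289, with 7 residual degrees of freedom. Every adjusted p given for a gene comes from this fit unless another setting is named. CPM are TMM-scaled, with n = 3 for pBIC10 and pBIC and n = 4 for YC. Floors of 3 counts cover counting error only.

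Named members were drawn, for each complex and comparison, from the called members with the smallest adjusted p (up to 3 higher and 3 lower). Core subunits, isoforms, complex II and members called against the direction of their complex could be named too. Some of this set, such as Atp5l, Ndufa12, Atp5c1, Atp5md and Ndufa4, are not described singly. Atp5b, Uqcrfs1, Uqcrq, Uqcrc1, Uqcrh and Cox5b, outside this rule, were picked after their values were seen. Exon lengths, shared 50-base stretches and chromosomal order came from RefSeq and GENCODE files of GRCm38, and 91.3% of tested genes had a length and 98.3% a chromosome. Alternatives were other scalings and filters, DESeq2 1.42.0, limma-voom (limma 3.58.1), sex as a covariate, females alone, a fit of 2 groups, removal of immunoglobulin and T cell receptor genes, a length trend removed, stricter thresholds and each library left out in turn; the neighbour medians were added after the data had been seen. The values of 1 member are not reported here, although it counts in all totals. Figures were drawn with matplotlib 3.10.9.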

Additional observations from a re-analysis of the deposited data

Results flagged for a closer look

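The level of Uqcr11, a small complex III subunit, was 25.3 CPM in YC replicate 3, beside 19.8 to 20.3 CPM in the other YC libraries. It was flagged because its gap to the nearest other library was 0.898 of the range of the group. It was the 1 flag among 47 values examined in YC, and chance flags about 1 in 20 such groups.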

How the results depend on the processing

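In pBIC10 against pBIC, 30 members were called, and the number was 14 with females alone, 14 with only the 2 groups fitted, 18 with neighbour medians removed, 9 at an adjusted p under 0.01 and 13 to 51 with 1 library left out in turn. By construction fewer libraries enter the fits of females, of 2 groups and with 1 library left out, and 0.01 is a stricter threshold. The 51 came without pBIC replicate 1, which had been singled out by its low level of these members. For the other settings the cause was not tested. The counts in pBIC against YC (54 to 78) and pBIC10 against YC (25 to 45) stayed within 1.5 times the reported ones under every alternative run. DESeq2 called 30, 64 and 28 members and limma-voom 29, 63 and 29, in the order pBIC10 against pBIC, pBIC against YC and pBIC10 against YC. Apart from the fit without pBIC replicate 1, member counts under these alternatives are given without the share of all genes called. Where they fall, a loss particular to the members is therefore not told apart from a general loss of calls. Removing a trend with exon length gave medians of -0.27, 0.69 and 0.39 in that order, against -0.43, 0.84 and 0.36. Of the results on single named members, 1406 kept their direction and side of the threshold, 150 lost the call and 6 reversed. The reversed ones in pBIC10 against pBIC, all with neighbour medians removed, were Ndufb9 (-0.34), Ndufb1 (-0.08), Cox6c (-0.41) and Atp5mpl (-0.32). In pBIC10 against YC, Cox6a2 reversed with females alone (-1.76, adjusted p = 0.0707) and without pBIC10 replicate 3, and with 1 library left out in turn it ranged between -1.4 and 4.78. No paired analysis was possible because the labels give no replicate numbers and those used here follow the order of deposit. Depth limits the isoforms at under 1 CPM, for which counts of a few reads per library carry the values. With shares taken from counts without exon length, 39 isoform shares of a group stayed within the SD between libraries and 18 moved beyond it.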
